A study of Mus musculus with 4 samples.

Results

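The 9 genes described here carry natriuretic peptide and cGMP signalling: the ligand gene Nppc, the receptor genes Npr1, Npr2 and Npr3, the soluble guanylyl cyclase subunit genes Gucy1a1 and Gucy1b1, the kinase genes Prkg1 and Prkg2 and the phosphodiesterase gene Pde5a. They were taken by symbol from a fixed list, and all 9 were found, once each, among the 55471 gene identifiers of the count matrices. The list was drawn up with the difference between mutant and wild type mesenchyme in these libraries known, so the members' values in mesenchymal cells are given as a description without a test. Tests of the members were kept for the cells outside the mesenchyme.

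Single cells of E18.5 (late embryonic) lung were profiled in 4 droplet libraries, 2 labelled wild type and 2 labelled Dnmt1 CKO, to compare gene expression with and without Dnmt1. The mutants carry Tbx4-rtTA and Tet-O-Cre with Dnmt1-D/D alleles: an activator that needs doxycycline, under Tbx4 control, turns Cre on in lung mesenchyme, and this Cre removes part of Dnmt1, the gene of the maintenance DNA methyltransferase. The series title speaks of a conditional knock in whereas the sample titles say CKO, and the sample titles were followed. The labels name no transgene for wild type and leave unsaid if the libraries are of separate animals, so p-values measure the spread between these libraries only, and an exact permutation test of 2 against 2 could not go below 0.333. The tissue was digested with enzymes and red blood cells were lysed before loading.

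C-type natriuretic peptide, the product of Nppc, acts over short distances on Npr2, a receptor whose inner part makes cyclic GMP, and Npr1 is the matching receptor for the cardiac peptides. Npr3 binds all of these peptides and mainly clears them. Nitric oxide makes the same messenger through the soluble cyclase, a pair of Gucy1a1 and Gucy1b1 products, cyclic GMP then acts through the kinases encoded by Prkg1 and Prkg2, and Pde5a degrades it. In the lung this system is known for relaxing vascular smooth muscle, and drugs against Pde5a are used in pulmonary hypertension.

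Promoters of 2 members are shown because Dnmt1 copies methylation at CG dinucleotides, which are in capitals. Nppc had the lowest ratio of mutant to wild type level in mesenchyme, and Gucy1b1 was close to its wild type level in one set of mutant cells, as given further on. Each sequence is the 250 bases before the gene's start, 5′ to 3′ on the gene's strand, from RefSeq on GRCm38.p6. Methylation was not measured in these libraries.
Nppc, chr1:86670574-86670823, minus strand: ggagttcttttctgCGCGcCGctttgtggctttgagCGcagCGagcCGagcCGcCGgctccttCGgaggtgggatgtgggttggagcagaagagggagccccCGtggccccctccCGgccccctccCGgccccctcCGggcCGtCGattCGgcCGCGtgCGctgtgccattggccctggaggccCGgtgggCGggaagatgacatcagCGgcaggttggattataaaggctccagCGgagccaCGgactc
Gucy1b1, chr3:82074712-82074961, minus strand: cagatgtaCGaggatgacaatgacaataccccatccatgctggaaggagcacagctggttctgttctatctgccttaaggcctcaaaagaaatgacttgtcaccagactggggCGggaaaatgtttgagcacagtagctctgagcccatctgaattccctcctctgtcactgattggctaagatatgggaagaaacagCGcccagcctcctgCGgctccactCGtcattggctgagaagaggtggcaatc

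The Nppc sequence held 24 CG dinucleotides and 69.2% G or C, and 12.0% of 32851 mouse promoter sequences of this length held as many. That of Gucy1b1 held 5, near the median of 6 over all promoters, and 51.2% G or C. Entries were matched by symbol for 8 members, all but Prkg2. Among the others the count of CG ran from 6 for Npr3 to 22 for Pde5a, where the sequence overlaps an annotated exon. The letters TATAAA, sought on both strands, were found once for Nppc and not for Gucy1b1, against 12.4% of all promoters, and GGGCGG, which holds a CG itself, once for each, against 32.7%.

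On GRCm38 all 9 genes are annotated as protein coding. Nppc (ENSMUSG00000026241.5) is on chromosome 1, 86666291 to 86670571, and Prkg2 (ENSMUSG00000029334.14) on chromosome 5, 98929773 to 99037351, both on the minus strand. Gucy1a1 (ENSMUSG00000033910.13, 82092427 to 82145789) and Gucy1b1 (ENSMUSG00000028005.13, 82032006 to 82074689) are neighbours on the minus strand of chromosome 3, with 17737 bases between them. Npr1 (ENSMUSG00000027931.12, 90450591 to 90465866) and Pde5a (ENSMUSG00000053965.10, 122728947 to 122859374) are on the same chromosome. Npr2 (ENSMUSG00000028469.15) is on chromosome 4, Npr3 (ENSMUSG00000022206.7) on chromosome 15 and Prkg1 (ENSMUSG00000052920.16) on chromosome 19.

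The libraries held from 48213065 to 56760219 UMIs, and 4323 to 5675 cells each passed the filters, with medians of 5902 to 7685 UMIs. Pairs of libraries shared 8 to 16 cell barcodes, at most 0.255% of the smaller library. Cells were clustered and named from marker genes, none of which is a member, and "-like" marks these names. Single clusters, with or without a subclass name, are called by their leading gene. Epithelial-like (504 to 1302 per library), endothelial-like (239 to 803) and immune-like cells (557 to 918) made up most of the rest beside the mesenchyme. Mesenchymal-like cells numbered 2549 to 2786 per library, but different clusters held them in the genotypes. An Inmt-led cluster held 1636 and 1459 wild type cells against 51 and 336 mutant cells, whereas Saa3-led and Dcx-led clusters held 1008 and 560 cells of Dnmt1 CKO replicate 1 and 989 and 398 of replicate 2, against at most 23 in a wild type library. Dnmt1 itself was at a per-million UMI level (CPM) of 27.7 and 26.1 in wild type and at 9.70 and 12.8 CPM in mutant mesenchymal-like cells (log2 fold change −1.27, SE 0.22, adjusted p = 0.00596, edgeR's quasi-likelihood test with Benjamini-Hochberg adjustment over 16143 genes). As these are 3′ counts and the labels do not name the deleted part of the gene, they need not report the deletion. Which mutant cells carried the matrix fibroblast name depended on the clustering. At the resolution used throughout, 114 and 434 mutant cells had it, with Dnmt1 at 33.5 and 23.9 CPM where wild type cells had 21.0 and 21.5 CPM. At a finer resolution, chosen after seeing the data, 747 and 819 mutant cells had it, among them 610 and 345 of a Dazl-led cluster with 2 and 1 wild type cells, and Dnmt1 was at 9.34 and 16.1 CPM where wild type cells had 21.2 and 21.3 CPM. In epithelial-, endothelial- and immune-like cells the log2 fold change of Dnmt1 was −0.02, −0.06 and 0.03 (SE 0.24, 0.23 and 0.28) and did not pass.

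In wild type lungs the members were highest in different cell types. Nppc and Prkg2 were highest in matrix fibroblast-like cells, the interstitial fibroblasts around the alveoli. The cyclase genes, Pde5a and Prkg1 were highest in pericyte-like cells, the mural cells of capillaries, and Npr1 in endothelial cells. Npr2 was spread over mesenchymal and alveolar epithelial cells. Levels are CPM, the gene's per-million share of all UMIs of cells of that type in a library, and are compared between cell types and libraries for 1 gene at a time, not between genes.

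**Figure D1:**
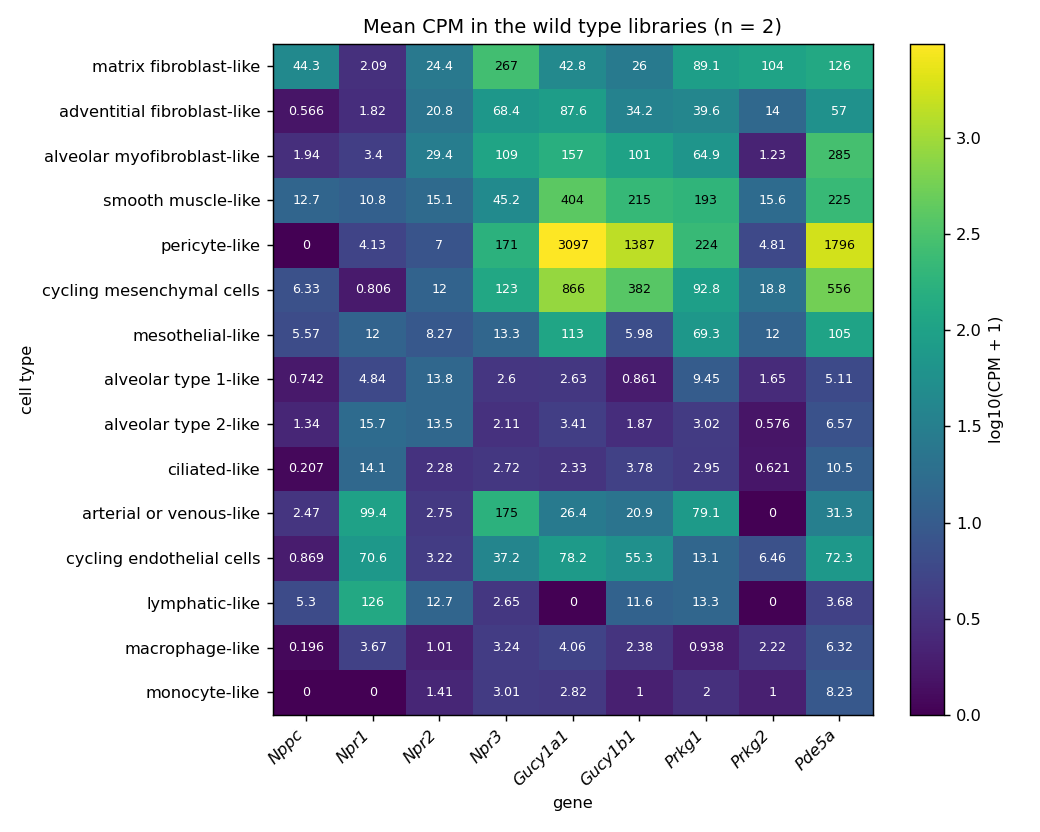
Level of the 9 members in 15 wild type cell types, as the mean CPM of the 2 wild type libraries, with the colour on a log10(CPM + 1) scale. Nppc and Prkg2 are brightest in matrix fibroblast-like cells, Gucy1a1, Gucy1b1 and Pde5a in pericyte-like cells and Npr1 in endothelial cells.

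The ligand gene Nppc was at 45.9 and 42.8 CPM in the matrix fibroblast-like cells of the wild type libraries, on 525 and 578 UMIs. In smooth muscle-like cells it was at 23.1 and 2.33 CPM, on 15 and 2 UMIs, so this level rests on replicate 1. No UMI was found in wild type pericyte-like cells, where 3 UMIs over the group would be 1.24 CPM.

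Over all mesenchymal-like cells Nppc was at 32.1 and 29.3 CPM in wild type replicates 1 and 2 and at 1.11 and 2.06 CPM in Dnmt1 CKO replicates 1 and 2. Both mutant libraries were below both wild type libraries (30.7 ± 2.00 against 1.58 ± 0.678, SD, n = 2 each), with a log2 fold change of −4.22. The counts behind these levels were 549 and 589 UMIs in wild type cells and 22 and 35 UMIs in mutant cells. A sum over a class does not separate fewer cells of a type from less RNA per cell, and these cannot be told apart here. After every cell was thinned to 3000 UMIs, 6.92% and 6.22% of wild type mesenchymal-like cells and 0.207% and 0.685% of mutant ones held an Nppc UMI (11.0%, 11.8%, 0.624% and 1.12% without thinning, at median depths of 5942, 7635, 7246 and 5813 UMIs). The thinning left out 186, 152, 146 and 298 shallower cells. In immune-like cells, a class that should lack Nppc, the thinned share was 0.196% and 0.1996% in wild type. Without thinning, 873 immune-like cells of Dnmt1 CKO replicate 1 held 0 Nppc UMIs and 918 of replicate 2 held 4.

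Within the mutant mesenchyme Nppc was low in each large cluster. The Saa3-led cluster had 1.27 and 1.56 CPM and the Dcx-led cluster 0.667 and 1.18 CPM in Dnmt1 CKO replicates 1 and 2. In the Inmt-led cluster, which held most wild type mesenchymal-like cells, Nppc was at 50.1 and 51.3 CPM in the wild type libraries and at 12.0 and 6.86 CPM in the mutant libraries. In the Scn3a-led cluster, also of matrix fibroblast-like cells, the libraries had 17.5 and 3.70 CPM in wild type cells and 2.12 and 6.06 CPM in mutant cells, and the groups overlapped. Over both clusters, as matrix fibroblast-like cells, the mutant levels were 6.21 and 6.66 CPM on 5 and 17 UMIs, and the log2 fold change was −2.70. The 12 naming markers of matrix fibroblasts summed to 12471 and 13913 CPM in these wild type cells and to 8493 and 9491 CPM in the mutant ones, with 11 of the 12 lower in both mutant libraries and none at 0. Their part in the Nppc difference was not tested. At the finer resolution Nppc in matrix fibroblast-like cells was at 45.1 and 42.7 CPM in the wild type libraries and at 2.23 and 4.92 CPM in the mutant libraries, on 11 and 22 mutant UMIs.

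**Figure D2:**
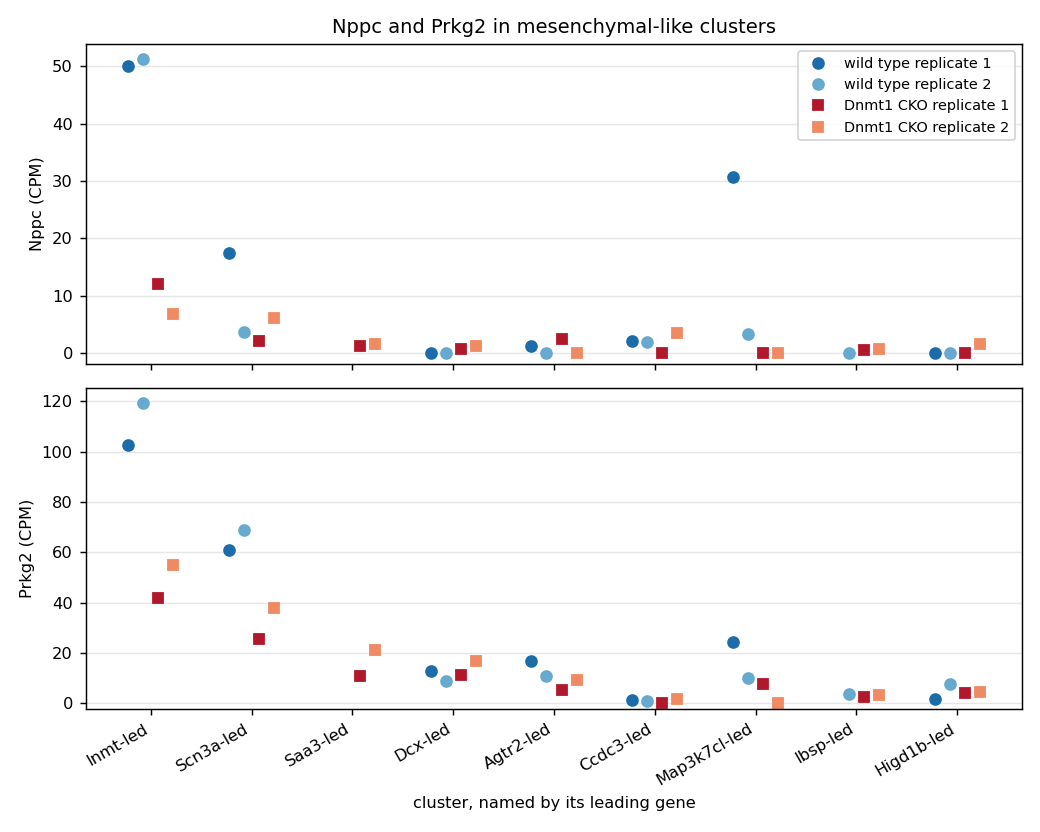
Nppc and Prkg2 in 9 mesenchymal clusters, named by their leading gene, as CPM per library, with a point where a library had at least 20 cells in the cluster. The wild type points stand apart in the Inmt-led cluster for both genes, where Nppc was at 50.1 and 51.3 CPM against 12.0 and 6.86 CPM in Dnmt1 CKO.

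The kinase gene Prkg2, which encodes a membrane-bound cGMP-dependent kinase known for its part in cartilage growth and gut secretion, had the same leading cell type as Nppc. Its levels in matrix fibroblast-like cells were 97.3 and 110.1 CPM in wild type cells and 32.3 and 50.5 CPM in mutant cells, with a log2 fold change of −1.24. Over all mesenchymal-like cells they were 68.7, 76.1, 8.84 and 19.6 CPM in the order of wild type and then Dnmt1 CKO replicates (72.4 ± 5.26 against 14.2 ± 7.63, SD, n = 2 each, log2 fold change −2.35). The groups overlapped in neither. At the finer resolution the matrix fibroblast-like cells had 96.9 and 109 CPM in wild type, with 16.5 and 38.3 CPM in the mutants. The Saa3-led and Dcx-led clusters were at 10.9 to 21.3 CPM in the mutants, and the 22 and 23 wild type cells of the Dcx-led cluster were at 13.1 and 8.89 CPM. The thinned share of mesenchymal-like cells with a Prkg2 UMI was 16.0% and 18.1% in wild type and 2.61% and 5.24% in mutant libraries (28.4%, 35.8%, 5.81% and 9.97% without thinning). The background share in immune-like cells was at most 0.599% in any library, at median depths from 5748 to 9002 UMIs.

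Erythroid-like cells, which should lack both genes, also held their UMIs. Nppc was at 10.9 and 42.6 CPM there in wild type, on 2 and 7 UMIs, and both mutant libraries had 0 UMIs, where 3 UMIs over the group would be 4.56 CPM. Prkg2 was at 70.9 and 48.7 CPM there in wild type, on 13 and 8 UMIs, and at 5.70 and 7.60 CPM in Dnmt1 CKO, on 3 and 1 UMIs. The matrix fibroblast markers summed to 6017 and 6231 CPM in the wild type and to 2330 and 1952 CPM in the mutant erythroid-like cells. These cells numbered 20 to 60 per library, and whether free RNA or joined cells gave these UMIs was not tested.

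Across 20 named wild type cell types, Nppc and Prkg2 correlated with each other at r = 0.76 in mean log2(CPM + 1). Among 13000 genes, those most like Nppc were Chst8 (r = 0.83), Macf1 (0.82), Slc27a3 (0.82), Hs6st3 (0.81) and Slit2 (0.80). Macf1 is one of the genes used to name matrix fibroblasts. Those most like Prkg2 were Scube2 (r = 0.94), Vgll3 (0.94), Cemip (0.93), Chst8 (0.93) and Smim41 (0.92). The cell types share libraries, depth and the clustering that made them, so these values describe the pattern only.

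The receptor genes did not share 1 pattern. Npr2, the receptor of the Nppc product, was at 27.9 and 31.0 CPM in alveolar myofibroblast-like cells of wild type, at 24.9 and 23.9 CPM in matrix fibroblast-like and at 21.5 and 20.1 CPM in adventitial fibroblast-like cells. These are its 3 highest named cell types, and the libraries of neighbours in this order did not overlap. Alveolar type 1-like and type 2-like cells followed smooth muscle-like cells, at 12.6 to 14.5 CPM. Over all mesenchymal-like cells Npr2 was at 22.7 and 22.6 CPM in wild type, with 10.5 and 13.5 CPM in the mutants, and the log2 fold change was −0.93. In matrix fibroblast-like cells the libraries had 24.9 and 23.9 CPM against 21.1 and 23.1 CPM.

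Npr3, the clearance receptor gene, was at 194 and 340.4 CPM in wild type matrix fibroblast-like cells, at 115 and 235 CPM in arterial or venous-like and at 113 and 229 CPM in pericyte-like cells. Wild type replicate 2 was above replicate 1 in each of these, by more than the cell types differed. Over all mesenchymal-like cells the levels were 155, 274, 47.6 and 80.5 CPM in wild type replicates 1 and 2 and Dnmt1 CKO replicates 1 and 2, with both mutant libraries lower (log2 fold change −1.74). In matrix fibroblast-like cells they were 116 and 134 CPM in Dnmt1 CKO, again below both wild type libraries, and 63.0 and 115 CPM at the finer resolution, where wild type cells had 193 and 339.6 CPM.

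Npr1 was low in mesenchymal-like cells, at 2.51 and 2.83 CPM in wild type cells and 2.11 and 2.95 CPM in mutant cells, and is the 1 member whose groups overlapped there. The other 8 were lower in both mutant libraries than in both wild type libraries, against 26.3% of the 16143 genes tested, and none was higher in both, against 31.2%. As the members were chosen on this contrast, nothing is read from that count.

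The soluble cyclase and its partners in pericyte-like and smooth muscle-like cells were the next set. Gucy1a1, the gene of the alpha subunit, was at 2794 and 3400 CPM in wild type pericyte-like cells and at 869 and 1389 CPM in those of Dnmt1 CKO. Gucy1b1, the gene of the haem-binding beta subunit, was at 1221 and 1553 CPM in wild type cells and at 449.7 and 728 CPM in mutant cells. Both subunit genes were lower in both mutant libraries, with log2 fold changes of −1.37 and −1.15.

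Pde5a and Prkg1 had the same order in these cells. As the members were chosen on the mesenchymal contrast, nothing is read from this order. Pde5a was at 1615 and 1977 CPM in the wild type libraries and at 528 and 1051 CPM in the mutant libraries (log2 fold change −1.10). Prkg1, which encodes the kinase that relaxes smooth muscle, was at 214 and 233 CPM in wild type, with 85.0 and 116 CPM in the mutants (log2 fold change −1.06). The 11 naming markers of pericytes summed to 9375 and 7766 CPM in wild type cells and to 4854 and 6966 CPM in mutant cells, with 4 of them lower in both mutant libraries and 1 higher.

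The finer clustering divided these mutant cells. A Higd1b-led cluster held 210, 172, 38 and 88 cells in the order of wild type and Dnmt1 CKO replicates, and a cluster with no wild type cell held 65 and 40 mutant cells. In the Higd1b-led cluster Gucy1a1 was at 2794, 3429, 1419 and 1825 CPM and Pde5a at 1615, 1986, 914 and 1337 CPM, with the mutant libraries still lower. In the cluster of mutant cells only, Gucy1a1 was at 581 and 346 CPM and Pde5a at 313 and 381 CPM.

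Smooth muscle-like cells were not divided here into those of vessels and of airways. Gucy1a1 was at 378 and 429 CPM in wild type cells and at 133 and 104 CPM in mutant cells. Prkg1 was at 183 and 203 CPM against 57.7 and 68.0 CPM. The log2 fold change of Gucy1b1 in these cells was −1.34, whereas that of Pde5a was 0.14. The cluster make-up differed here too: an Ibsp-led cluster held 319 and 267 mutant cells but 15 and 29 wild type cells, and a Map3k7cl-led cluster 37 and 58 against 68 and 61. In the Map3k7cl-led cluster alone Gucy1a1 was at 469.9 and 570.4 CPM in the wild type libraries and at 418 and 323 CPM in the mutant libraries, and Prkg1 at 217 and 196 CPM against 156 and 164 CPM. Both genes were lower in the mutant libraries within this cluster, by less than over all smooth muscle-like cells. In the Ibsp-led cluster Gucy1a1 was at 99.5 and 107 CPM in wild type, with 101 and 55.5 CPM in the mutants, and the groups overlapped. At the finer resolution neither of these clusters had the smooth muscle name. A Sbspon-led cluster of 16, 29, 28 and 35 cells had it instead, with Gucy1a1 at 96.5, 107, 157 and 65.5 CPM and Prkg1 at 78.4, 219, 146 and 87.3 CPM in the order of wild type and Dnmt1 CKO replicates. The groups overlapped there, so the lower mutant levels under the smooth muscle name depended on which cells had that name. The finer resolution also held a cluster with the same cell and UMI counts as the Map3k7cl-led one. The lower levels within that cluster thus did not depend on the resolution.

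In matrix fibroblast-like cells the cyclase genes had low levels with another order. Gucy1a1 was at 31.4 and 54.3 CPM in wild type cells and at 67.1 and 47.0 CPM in mutant cells, an overlap. Gucy1b1 was at 20.5 and 31.4 CPM in the wild type libraries and at 46.0 and 40.3 CPM in the mutant libraries, higher in both mutant libraries. Pde5a was at 126 and 127 CPM against 137 and 128 CPM, also higher in both, by little. Prkg1 was at 70.8 and 107 CPM against 57.2 and 67.3 CPM, lower in both mutant libraries. The order of the libraries was the same for these 4 genes at the finer resolution, as with Gucy1b1 at 20.5 and 31.6 CPM against 49.2 and 38.0 CPM.

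**Figure D3:**
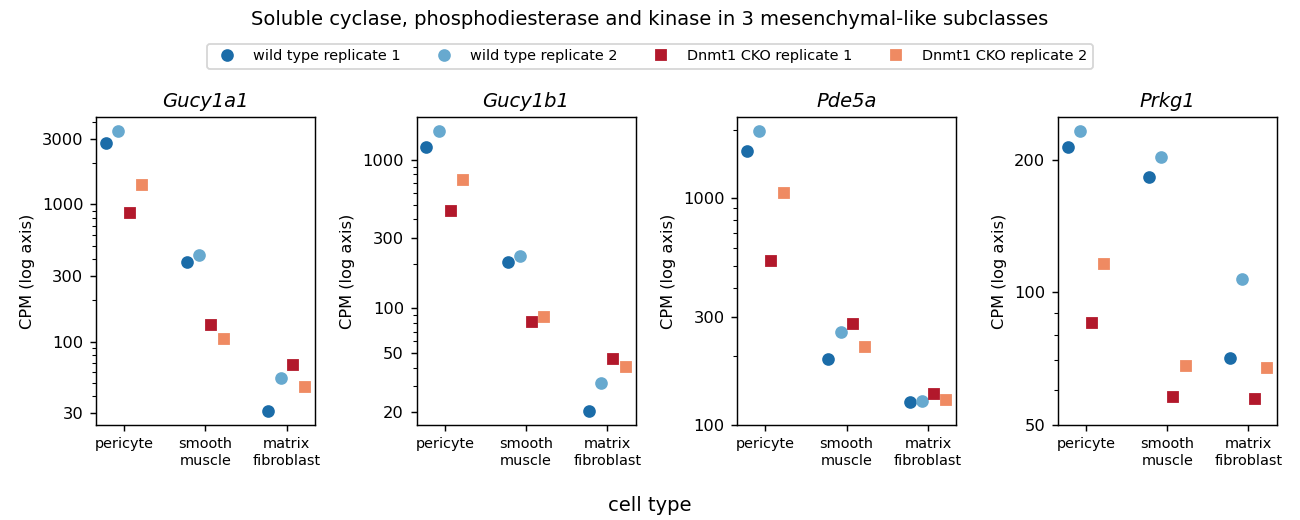
Gucy1a1, Gucy1b1, Pde5a and Prkg1 in pericyte-like, smooth muscle-like and matrix fibroblast-like cells, as CPM per library on a log axis. In pericyte-like cells all 4 genes are lower in both mutant libraries, as with Gucy1a1 at 869 and 1389 CPM against 2794 and 3400 CPM. In matrix fibroblast-like cells the cyclase genes are not. As the members were chosen on the mesenchymal contrast, nothing is read from these orders.

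Over all mesenchymal-like cells Gucy1a1 was at 265, 338, 110.0 and 123.5 CPM, Gucy1b1 at 124, 162, 68.6 and 73.9 CPM, Prkg1 at 80.9, 112, 35.9 and 46.3 CPM and Pde5a at 253, 283, 176 and 183 CPM, in the order of wild type and then Dnmt1 CKO replicates. Both mutant libraries were below both wild type libraries for each gene. The log2 fold changes were −1.38, −1.02, −1.23 and −0.59. They were not alike in all subclasses. In the same gene order they were −2.34, −1.77, −1.41 and −1.35 in cycling mesenchymal cells. Alveolar myofibroblast-like cells had −0.07, −0.06, 0.31 and −0.08, and adventitial fibroblast-like cells −0.29, −0.31, −0.16 and 0.27.

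Mutant mesenchymal-like cells differed in whether they held transcripts of germline genes, which were near 0 in wild type mesenchyme. With 16 such genes, 81.0% of the mesenchymal-like cells of Dnmt1 CKO replicate 1 and 57.4% of replicate 2 had at least 3 UMIs, and 11.2% and 32.5%, or 287 and 902 cells, had none. Wild type libraries had 0 and 3 cells with at least 3 UMIs. Dnmt1 was at 46.7 and 29.9 CPM in the mutant cells with none, where wild type cells with none had 27.6 and 25.9 CPM, and at 5.62 and 4.94 CPM in the mutant cells with 3 or more.

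The members divided into 2 sets here. Nppc was low in both kinds of mutant cell, at 1.56 and 4.02 CPM in those with no germline UMI (3 and 20 UMIs) and at 0.947 and 1.21 CPM in those with 3 or more, where wild type cells with none had 31.8 and 28.8 CPM. Prkg2 was at 16.1 and 29.3 CPM and at 8.05 and 15.5 CPM in the same cells, where wild type cells had 68.7 and 76.2 CPM. For these 2 genes the mutant cells with no germline UMI were below both wild type libraries.

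The cyclase genes and Pde5a lay between the wild type libraries in mutant cells with no germline UMI. Gucy1a1 was at 298 and 279 CPM there, between the wild type libraries at 267 and 334 CPM, and at 87.6 and 54.4 CPM in mutant cells with 3 or more. Gucy1b1 was at 144 and 146 CPM where wild type cells had 125 and 160.4 CPM, and Pde5a at 256 and 266 CPM against 254 and 282 CPM. Prkg1, at 62.2 and 76.3 CPM, was below the wild type libraries at 81.0 and 112 CPM. These sums mix cell types, and wild type Gucy1a1 averaged 3097 CPM in pericyte-like and 42.8 CPM in matrix fibroblast-like cells. A summed level near that of wild type does not show that each cell type kept its level. In the Higd1b-led cluster described above, Gucy1a1 and Pde5a were lower in both mutant libraries.

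Npr3 and Npr2 were also lower in mutant cells with no germline UMI. Npr3 was at 53.4 and 100.03 CPM where wild type cells had 155 and 274 CPM, and Npr2 at 15.03 and 20.9 CPM against 22.6 and 22.6 CPM. The 2 kinds of cell come from different clusters and the division was made from the measured cells, so these values describe which cells hold the transcripts. Among matrix fibroblast-like cells with no germline UMI, 81 and 385 in the mutants, Nppc was at 3.44 and 6.60 CPM, on 2 and 15 UMIs, where wild type cells had 45.5 and 42.2 CPM. Prkg2 was at 41.2 and 51.5 CPM there, against 97.4 and 109.99 CPM.

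**Figure D4:**
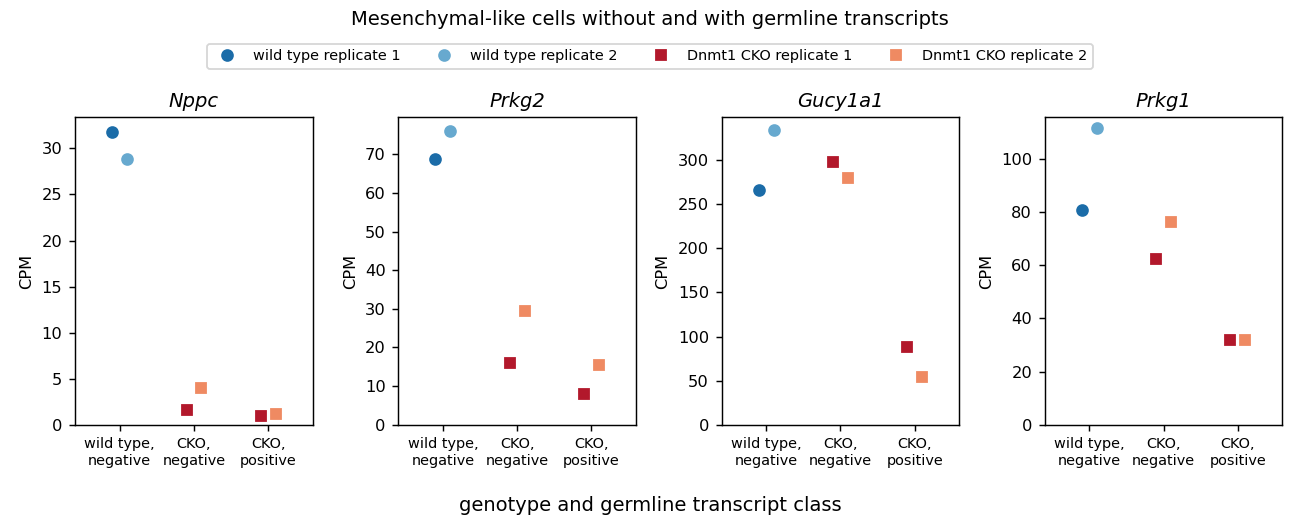
Nppc, Prkg2, Gucy1a1 and Prkg1 as CPM per library in mesenchymal-like cells of wild type and Dnmt1 CKO with no UMI of the germline genes and of Dnmt1 CKO with at least 3. Nppc and Prkg2 are low in both kinds of mutant cell, whereas Gucy1a1 in the mutant cells with no germline UMI, at 298 and 279 CPM, lies between the wild type libraries.

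Outside the mesenchyme, 0 members passed an adjusted p of 0.05 in epithelial-like (9 tested), endothelial-like (8), immune-like (6) or mesothelial-like cells (4), by edgeR's quasi-likelihood test with Benjamini-Hochberg adjustment over all genes tested. Few genes of any kind did: 0% of genes in epithelial-like cells, 0.0553% in endothelial-like, 0.016% in immune-like and 0.514% in mesothelial-like cells. At an unadjusted p under 0.05 there were 4, 3, 1 and 2 members in the same order, against 490 of 15314, 494 of 12653, 565 of 12510 and 915 of 8750 genes of all kinds. DESeq2 also called 0 members in each of these classes, with 1, 3, 0 and 0 at an unadjusted p under 0.05. Left out by the low-count filter were Nppc in endothelial-like cells, Nppc, Npr2 and Prkg2 in immune-like cells, and Nppc, Npr1, Npr2, Npr3 and Prkg2 in mesothelial-like cells. With any 1 library left out 0 members were called either, while the number of all genes called reached at most 62, 115, 325 and 53 in these classes. In the 4 subclasses outside the mesenchyme where members passed the low-count filter, 0 members were called as well, with 1 of 4 at an unadjusted p under 0.05 in alveolar type 1-like, 3 of 8 in type 2-like, 2 of 6 in cycling endothelial and 0 of 4 in macrophage-like cells. The share of all genes called in these subclasses was 0.129%, 0.00739%, 0% and 0.0354%.

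Endothelial-like cells had the highest Npr1 level of the 5 broad classes. Npr1 was at 79.7 and 81.3 CPM in wild type, with 75.0 and 62.0 CPM in the mutants, with more spread between the mutant libraries than between the group means. Among endothelial subclasses of wild type it was at 139.96 and 111 CPM in lymphatic-like cells, of which there were 10 and 9, and at 101 and 97.9 CPM in arterial or venous-like cells. The means of these neighbours differed by less than the lymphatic-like libraries did. A Vwf-led endothelial cluster without a subclass name had 125 and 172 CPM in wild type.

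Gucy1a1 was lower in both mutant libraries in endothelial-like cells, at 22.2 and 22.8 CPM against 58.6 and 50.5 CPM. The log2 fold change of −1.23 (SE 0.25) had an unadjusted p of 0.000418 and did not pass after adjustment (adjusted p = 0.240, edgeR's quasi-likelihood test with Benjamini-Hochberg adjustment). Pde5a was at 52.5 and 56.1 CPM in wild type cells and at 21.4 and 29.8 CPM in mutant cells, with a log2 fold change of −1.03 (SE 0.26) that also did not pass (adjusted p = 0.548). Without the filter on low counts both genes passed, at adjusted p = 0.00376 and 0.0337 by the same edgeR test, and over all 12 alternatives the adjusted p ran from 0.000775 to 1 for Gucy1a1 and from 0.00765 to 1 for Pde5a. The 11 pericyte markers summed to 256 and 180.3 CPM in these wild type cells and 113 and 153 CPM in these mutant cells, with 7 of 11 lower in both mutant libraries. Their part in the difference was not tested.

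At the finer clustering 2 capillary groups could be named. In general capillary-like cells Gucy1a1 was at 32.3 and 50.9 CPM in the wild type libraries and at 7.15 and 9.61 CPM in the mutant libraries, on 45, 97, 4 and 10 UMIs. In Car4-positive capillary-like cells it was at 28.2 and 59.4 CPM against 13.6 and 20.1 CPM. Few genes of any kind passed in these groups (0% and 0.0229%), and neither difference passed edgeR's quasi-likelihood test with Benjamini-Hochberg adjustment (log2 fold changes −2.05, SE 0.40, adjusted p = 0.237, and −1.26, SE 0.39, adjusted p = 0.479).

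With Gucy1a1 and Pde5a, 7 of the 9 members were lower in both mutant libraries in endothelial-like cells, against 15.5% of genes that passed the low-count filter. The 7 count Nppc, which did not pass that filter. Npr3 was at 30.2 and 68.8 CPM in wild type, with 20.3 and 30.0 CPM in the mutants, so that wild type replicate 1 was next to Dnmt1 CKO replicate 2. The 12 matrix fibroblast markers summed to 882 and 979.8 CPM and to 645 and 702 CPM in these endothelial-like cells, with 10 of 12 lower in both mutant libraries. What part these markers' cells had in the members' levels was not tested, so nothing is read from the count of 7. Nppc had a few UMIs in wild type endothelial-like cells, at 1.12 and 1.04 CPM, and 0 UMIs in both mutant libraries, where 3 UMIs would be 0.399 CPM over the group.

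Epithelial-like cells had low levels of the members. Npr1 was at 13.04 and 12.7 CPM in wild type cells and at 9.15 and 12.1 CPM in mutant cells, and Npr2 at 12.4 and 12.2 CPM against 15.9 and 12.7 CPM. Here 8 of the 9 members were lower in both mutant libraries, against 11.4% of genes, and Npr2 was higher in both, against 15.9% of genes. Prkg1 had the smallest p among the members (3.54 and 4.72 CPM in wild type cells, 1.12 and 1.81 CPM in mutant cells, log2 fold change −1.40, SE 0.38, unadjusted p = 0.00804, edgeR's quasi-likelihood test) and did not pass after adjustment (adjusted p = 1 by the same edgeR test). Over 12 alternatives its adjusted p ran from 0.0132 to 1, with 1 call, under a replicate block. The matrix fibroblast markers summed to 1497 and 1684 CPM in wild type cells and 1352 and 1427 CPM in mutant cells, with 10 of 12 lower in both mutant libraries. Their part in the members' levels was not tested, so nothing is read from the count of members lower here.

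In mesothelial-like cells, which numbered 28 to 67 per library, Gucy1b1 was at 5.40 and 6.56 CPM in the wild type libraries and at 13.1 and 16.5 CPM in the mutant libraries, on 3, 5, 11 and 19 UMIs. The log2 fold change of 1.00 (SE 0.43) did not pass (adjusted p = 0.473, edgeR's quasi-likelihood test with Benjamini-Hochberg adjustment). Gucy1b1 was higher in both mutant libraries here, as were 24.5% of genes that passed the low-count filter. Of the other members, 4 were lower in both, against 17.5% of genes that passed it. Among these 4 was Pde5a, at 97.2 and 113 CPM against 60.6 and 78.9 CPM. Not all members passed that filter here. Dnmt1 was also lower in both mutant libraries here, at 52.2 and 48.6 CPM against 9.50 and 18.2 CPM, and did not pass (log2 fold change −1.71, SE 0.35, adjusted p = 0.0924 by the same edgeR test). In immune-like cells, where most members had few UMIs, Npr3 was at 2.52 and 6.60 CPM in wild type cells and 1.19 and 2.07 CPM in mutant cells. Of the 9 members, not all of which passed the filter, 2 were lower in both mutant libraries in these cells, 0 were higher in both and 7 overlapped. Of the 12510 genes that passed it, 2315 were lower in both.

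**Figure D5:**
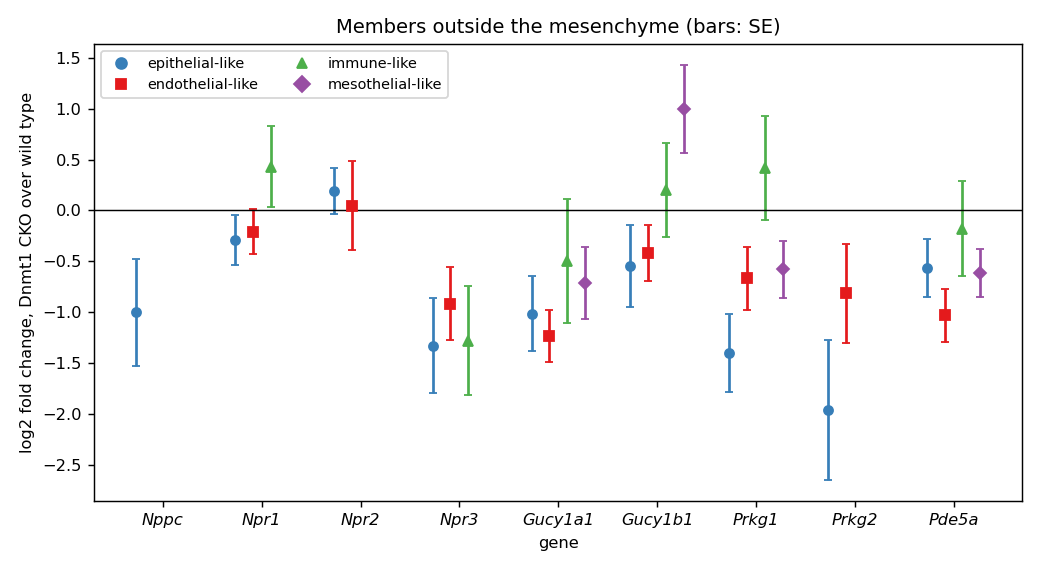
Log2 fold change of the members, Dnmt1 CKO over wild type, with its SE from edgeR, in 4 classes outside the mesenchyme. None passed an adjusted p of 0.05, and the estimates for Gucy1a1 (−1.23) and Pde5a (−1.03) in endothelial-like cells and Prkg1 (−1.40) in epithelial-like cells lie below 0.

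A further list held 39 genes of peptide processing, nitric oxide synthesis, other cyclases, other phosphodiesterases and cGMP targets. In mesenchymal-like cells 24 were tested and 5 passed the adjusted p of 0.05, 3 lower and 2 higher in Dnmt1 CKO, against 13.3% of all genes. This list too was chosen with earlier results of these data known. Its calls and p-values in mesenchymal-like cells are therefore a description and no independent test. Without Dnmt1 CKO replicate 1 the count was 3. The median log2 fold change of the list was −0.19, that of all genes 0.00428.

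The lower genes act on the peptides or below cGMP. Mme, which encodes neprilysin, a peptidase that degrades natriuretic peptides, was at 121 and 176 CPM in wild type, with 11.2 and 27.2 CPM in the mutants (log2 fold change −2.95, SE 0.38, adjusted p = 0.00149, edgeR's quasi-likelihood test with Benjamini-Hochberg adjustment). Furin, the protease that cuts the Nppc precursor, was at 58.9 and 57.1 CPM against 38.5 and 37.7 CPM (log2 fold change −0.62, SE 0.18, adjusted p = 0.0489 by the same edgeR test). Rgs2, a regulator of G protein signalling that the Prkg1 kinase phosphorylates, was at 484 and 533 CPM against 218 and 272 CPM (log2 fold change −1.06, SE 0.21, adjusted p = 0.0106 by the same edgeR test).

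The higher genes were a cation channel and a nitric oxide synthase. Trpc6 was at 15.9 and 14.8 CPM in wild type cells and at 43.4 and 74.9 CPM in mutant cells (log2 fold change 1.92, SE 0.27, adjusted p = 0.00230 by the same edgeR test). It is also 1 of the pericyte naming markers. Nos1, the neuronal nitric oxide synthase gene, was at 0.175 and 0.298 CPM against 3.97 and 1.71 CPM (log2 fold change 3.08, SE 0.52, adjusted p = 0.00555 by the same edgeR test). The wild type levels of Nos1 rest on few UMIs, as 3 UMIs over that group would be 0.0806 CPM. Its mutant libraries also differed, with replicate 1 above replicate 2.

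Outside the mesenchyme 0 genes of the list were called by edgeR or DESeq2, of 21 tested in epithelial-like, 21 in endothelial-like, 16 in immune-like and 13 in mesothelial-like cells, with 1, 3, 1 and 5 at an unadjusted p under 0.05 in edgeR's quasi-likelihood test, against the 490, 494, 565 and 915 of all genes given above. In mesenchymal-, epithelial-, endothelial-, immune- and mesothelial-like cells the cardiac peptide genes were near or at 0. Nppa had at most 2 UMIs in any of these classes in any library, and Nppb had none. Cardiomyocyte-like and erythroid-like cells, also found in these libraries, were not counted for these 2 genes. In mesenchymal-like cells 3 UMIs over the wild type group would be 0.0806 CPM. In endothelial-like cells Nos3, the endothelial nitric oxide synthase gene, had 60.5 and 45.2 CPM in the wild type libraries against 67.7 and 51.6 CPM, with overlapping groups.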

How the data were processed

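The authors deposited UMI counts per gene and barcode of droplet 3′ v3 libraries, made, per the submitters' processing notes, with Cell Ranger 3.1.0 after bcl2fastq 2.20 on build GRCm38.p6, and Seurat is also named there. Barcodes with at least 500 genes and at most 20% mitochondrial UMIs were kept, and Scrublet doublets (78 to 228 per library) were left out. Clustering used scanpy 1.11.5 and leidenalg 0.10.2 (resolution 1.0), without the members among the variable genes and without integration of the libraries. Rebuilt cell names are uncertain. UMIs were summed per library and class, filtered with filterByExpr, scaled by TMM and compared with edgeR 4.0.16 by its quasi-likelihood test (limma 3.58.1 in R 4.3.3), Dnmt1 CKO over wild type, 2 against 2. An SE is the log2 fold change divided by √F. Subclasses needed 20 cells in every library. Groups came from the sample titles. Germline genes above 1 CPM in wild type mesenchyme were left out, which kept 16 of 20. The members and lists were chosen with earlier results of these data known. All members were named, every list gene called in a class, and the 5 genes most correlated with Nppc and with Prkg2. The fits were tested on simulated data. Alternatives were other scalings, DESeq2 1.42.0, a replicate block, no low-count filter, each library left out, stricter cell filters, doublets kept, Leiden resolutions of 0.5 and 2.0 and thinning to 2000 UMIs. Counts of 3 UMIs and shares of cells carry counting error only.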

Additional observations from a re-analysis of the deposited data

Results flagged for a closer look

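Npr2 was higher in both Dnmt1 CKO libraries than in both wild type libraries in epithelial-like cells (mean 14.35 CPM in Dnmt1 CKO, from 15.9 and 12.7 CPM, against 12.4 and 12.2 CPM) and lower in both in mesenchymal-like cells (10.5 and 13.5 CPM against 22.7 and 22.6 CPM). Gucy1b1 was higher in both Dnmt1 CKO libraries in mesothelial-like cells (mean 14.8 CPM, from 13.1 and 16.5 CPM, against 5.40 and 6.56 CPM) and lower in both in mesenchymal-like and epithelial-like cells. Of genes that passed the low-count filter, 15.9% in epithelial-like and 24.5% in mesothelial-like cells were higher in both mutant libraries. The mesothelial-like levels of Gucy1b1 rest on 3 and 5 UMIs in wild type and on 11 and 19 in Dnmt1 CKO. Each gene stands here because the libraries moved opposite ways in different classes, and neither difference between classes was tested.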

How the results depend on the processing

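Counts of called genes depended on the settings more than the members' directions did. In the order mesenchymal-, epithelial-, endothelial-, immune- and mesothelial-like (2155, 0, 7, 2 and 45 genes), no low-count filter gave 3434, 176, 137, 255 and 283 genes and a replicate block 3476, 262, 161, 9 and 146. Leaving out 1 library gave 1077 to 2344, 0 to 62, 0 to 115, 0 to 325 and 11 to 53, with the most in the epithelial-, endothelial- and immune-like cells without Dnmt1 CKO replicate 1 and the fewest in mesenchymal-like cells without wild type replicate 2. DESeq2 gave 18, 14 and 32 in epithelial-, endothelial- and immune-like cells. In endothelial- and immune-like cells resolution 0.5 gave 2 and 1, kept doublets 23 and 4, and stricter cell filters 2 and 1. Members called were 2 in endothelial-like cells without the filter and 2 with the replicate block (Gucy1a1, adjusted p = 0.000775, and Pde5a, adjusted p = 0.00765, edgeR), and 1 in epithelial-like cells with the block (Prkg1, adjusted p = 0.0132, edgeR). Replicate numbers only name samples, with correlations of same-numbered deviations from −0.00168 to 0.31 over 2 pairs. The mesenchymal-like list count of 5 was 8 without the filter and 3 (without Dnmt1 CKO replicate 1) to 7 with 1 library left out. Without the filter it was 1 in endothelial- and 1 in immune-like cells, with the block 1 in epithelial- and 1 in endothelial-like cells, and with 1 library left out 0 to 1 in endothelial- and 0 to 1 in immune-like cells. Thinned to 2000 UMIs, the wild type shares were 5.12% for Nppc and 12.9% for Prkg2. The log2 fold change of Nppc in mesenchymal-like cells was −4.69 without Dnmt1 CKO replicate 2. Signs turned for weakly expressed members in endothelial- and immune-like cells. They also turned for Gucy1a1 in mesothelial-like cells, where the wild type libraries had 63.0 and 163 CPM. With 1 library left out, log2 fold changes ran from −0.47 to 0.38 for Npr2 in endothelial-like cells (0.05 with all libraries), from −1.63 to 0.17 for Gucy1a1 (−0.50), −0.23 to 0.55 for Gucy1b1 (0.20) and −0.93 to 0.34 for Pde5a (−0.18) in immune-like cells, and from −1.20 to 0.082 for Gucy1a1 in mesothelial-like cells (−0.71), where leaving out wild type replicate 2 turned it. Npr2 in endothelial-like cells was also at −0.0012 at resolution 2.0, −0.32 with doublets and −0.025 with stricter filters. In immune-like cells doublets turned Gucy1b1 to −0.068 and Prkg1 (0.42) to −0.57, and stricter filters Gucy1b1 to −0.35. The causes were not tested.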
